A study of Arabidopsis thaliana with 4 samples.

Results

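Transcripts of 54 Arabidopsis thaliana genes for the uptake, regulation, chelation, export and storage of iron and zinc were examined in whole seedlings. The genes were taken by identifier from the 32833 genes of the deposited count table, and all 54 had a row there. RNA came from 7-day-old Col0 seedlings, 2 libraries labelled cml39 -/- and 2 labelled WT (wt here); CML39 encodes a calcium-binding protein of the calmodulin-like family. All plants were grown with 16 h of light and 8 h of dark at 22°C, and the labels name no iron, zinc or other treatment. The labels do not state whether replicate seedlings came from separate cultures, so p-values measure only the spread between these samples, which may be technical.

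Arabidopsis takes up iron at the root surface by reduction: protons and coumarins loosen ferric iron from soil, a ferric chelate reductase converts it to the ferrous form, and the transporter IRT1 carries it into the epidermis. The bHLH protein FIT, paired with bHLH factors of the Ib group, switches these genes on when iron is short, while iron-binding ligases of the BRUTUS family limit the response. Inside the plant, nicotianamine and citrate carry iron and zinc through phloem and xylem, ferritins hold iron in plastids, and zinc uptake genes of the ZIP family answer to zinc shortage.

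Libraries held 19821451 to 21981123 counts under the cml39 label and 19331639 to 24101882 under the wt label. At 3 counts a gene at 0 could still have been present at 0.151 to 0.164 CPM, the scaled read count used throughout, in the cml39 libraries and 0.113 to 0.143 CPM in the wt libraries; these floors cover counting error only. CML39 itself had 45 and 21 counts in the libraries labelled cml39 and 0 and 0 in those labelled wt. It passed the filter on low counts through cml39 only, so that the direction of its call (edgeR, adjusted p = 0.00218) was set by the filter. By these counts the mutant label did not go with loss of this transcript, and cml39 and wt below stand for these labels alone. Of 20 root marker genes, 16 were lower in cml39 and 0 higher, against 21.6% lower and 19.3% higher of all tested genes. The median log2 change of the markers was -2.21, and 8 of the 20 passed the filter on low counts through wt only. Their summed level was 1107 to 1370 CPM in cml39 and 4202 to 4708 CPM in wt, most of it PYK10, a root myrosinase. WOX5, which marks the root's quiescent centre, had 0 and 0 counts in cml39 and 15 and 11 in wt, while PLT2, a regulator of the root stem cell niche, had 0 and 21 counts in cml39 and 30 and 19 in wt. Of 10 leaf and chloroplast markers 5 were higher and 0 lower, against 19.3% higher and 21.6% lower of all tested genes. Their sum was 67777 to 72338 CPM in cml39 and 48126 to 50481 CPM in wt. In bulk seedlings, fewer root cells and less RNA of a root gene per cell cannot be told apart.

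Of the 54 genes 51 had enough counts to be tested, and 35 of them (68.6%) passed in edgeR's quasi-likelihood test at an adjusted p of 0.05, against 40.9% of all 19834 tested genes. In cml39, 10 were higher (19.6%, against 19.3% of all tested genes) and 25 were lower (49.0%, against 21.6%). The median log2 change was -0.51 for the 51 genes and -0.0052 for all tested genes. Of the 51, 7 passed the filter on low counts only through the wt libraries, which left them little room but to be lower; 5 of those were among the 25. The rises ran from 0.34 to 1.18 on the log2 scale. Among the falls that did not rest on the wt libraries for the filter, the log2 changes ran from -3.67 for IRT1 to -0.35 for NRAMP1. Without the library wt 1, 22 of the genes passed. Over 12 alternative analyses, which include leaving out each library in turn, 16 of the 25 falls and 3 of the 10 rises passed in every one.

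**Figure D1:**
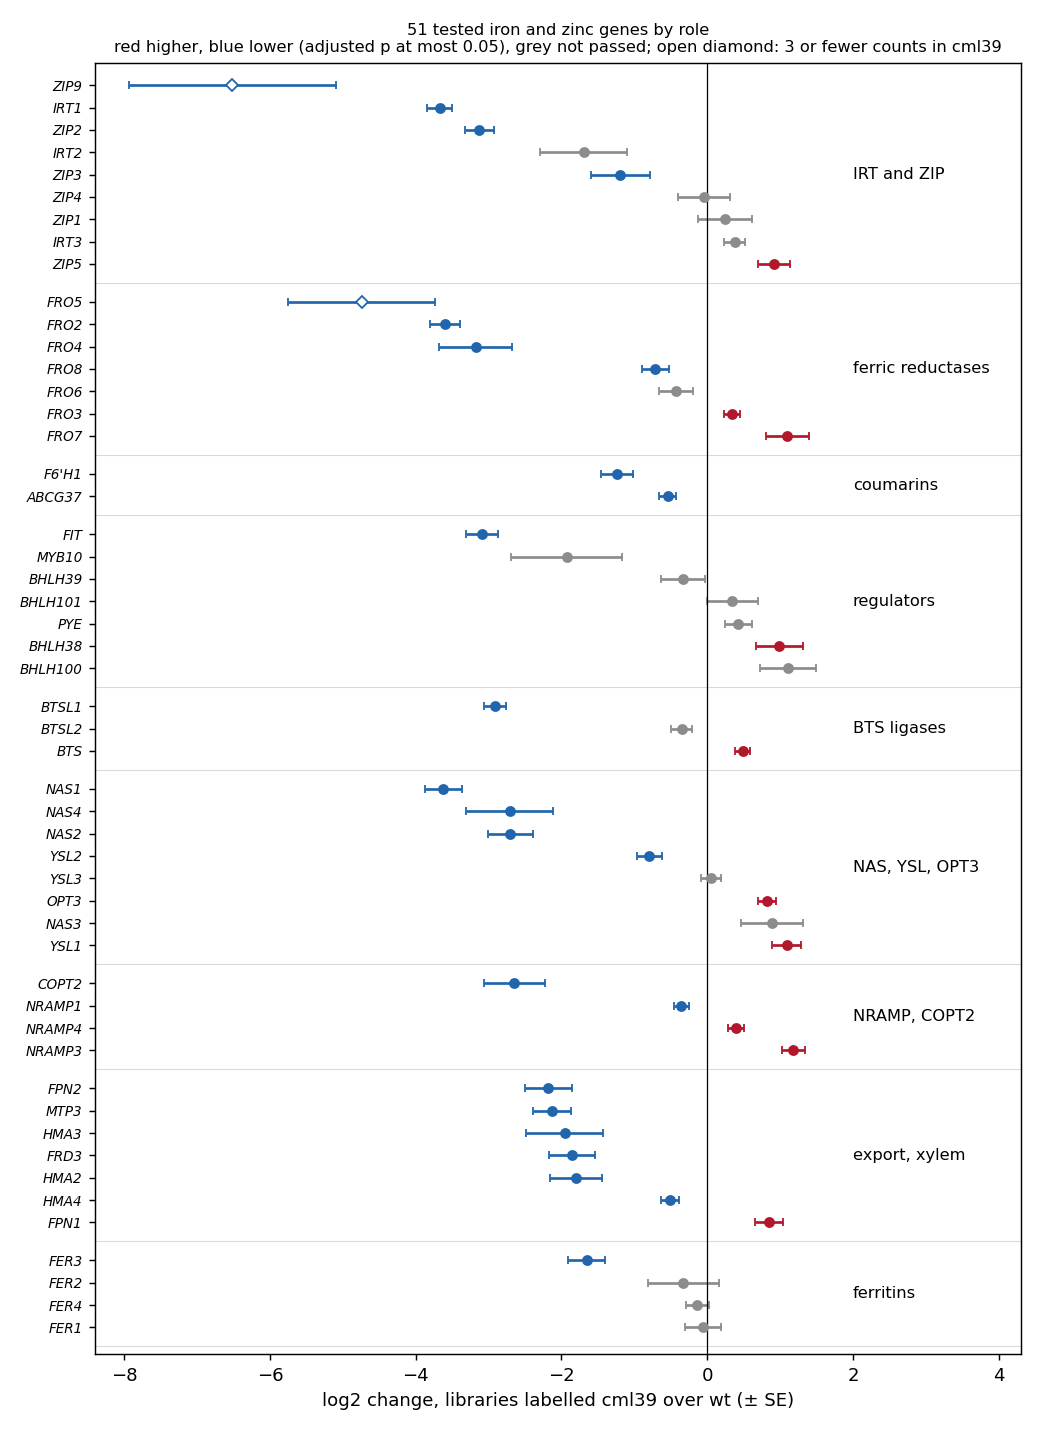
Log2 change (libraries labelled cml39 over wt, x axis) of the 51 tested iron and zinc genes, grouped by role, with the standard error as bars; red passed as higher, blue as lower, grey did not pass. The ferritins span -1.66 to -0.06, and IRT1, FRO2, NAS1, ZIP2 and FIT lie below -3; ZIP9 and FRO5, drawn as open diamonds, had 3 or fewer counts in cml39, so their position depends on the fit.

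Before the values by role, the promoters of the genes that share a motif are shown, because these genes did not move as one. The 300 bases before the annotated start of each gene in RefSeq's TAIR10.1 were searched on both strands for the G-box CACGTG, the core of the zinc deficiency response element TGTCGACA, the phosphate element GNATATNC and the copper element core GTAC. The files name TAIR10 and give no coordinates, so all positions are those of TAIR10.1. The G-box, a binding site of bHLH and bZIP factors, lay in 8 of the 54 promoters (14.8%), against 7.09% of 27443 promoters. Of these genes FRO7, BHLH38, BTS and OPT3 rose, FER3 fell, and FRO6, BHLH100 and FER4 did not pass. Of all tested genes 19.3% were higher and 21.6% lower. The 150 bases nearest the start follow, each 5′ to 3′ on the gene's own strand, with G-boxes in capitals.
BTS, chr3:6273816-6273965, plus strand: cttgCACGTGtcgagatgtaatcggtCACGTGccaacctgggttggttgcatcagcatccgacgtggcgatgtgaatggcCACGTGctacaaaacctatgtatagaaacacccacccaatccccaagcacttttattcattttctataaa
BHLH38, chr3:21085246-21085395, minus strand: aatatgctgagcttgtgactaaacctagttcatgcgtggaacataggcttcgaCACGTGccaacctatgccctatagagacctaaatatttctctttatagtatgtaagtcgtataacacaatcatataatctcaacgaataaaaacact
BHLH100, chr2:17199455-17199604, minus strand: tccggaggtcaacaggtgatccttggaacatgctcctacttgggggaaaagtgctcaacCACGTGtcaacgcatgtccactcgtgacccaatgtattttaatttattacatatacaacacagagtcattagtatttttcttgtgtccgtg
OPT3, chr4:9250344-9250493, minus strand: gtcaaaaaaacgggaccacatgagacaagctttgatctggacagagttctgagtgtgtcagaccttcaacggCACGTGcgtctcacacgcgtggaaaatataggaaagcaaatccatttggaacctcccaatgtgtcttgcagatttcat
FRO6, chr5:20204596-20204745, minus strand: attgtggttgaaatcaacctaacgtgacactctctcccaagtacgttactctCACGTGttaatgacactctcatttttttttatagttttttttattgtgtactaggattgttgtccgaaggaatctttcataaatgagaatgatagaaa
FRO7, chr5:20208778-20208927, minus strand: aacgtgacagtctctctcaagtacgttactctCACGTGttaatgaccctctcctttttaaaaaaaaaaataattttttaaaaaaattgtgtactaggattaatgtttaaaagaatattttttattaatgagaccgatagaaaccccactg
FER3, chr3:20816036-20816185, minus strand: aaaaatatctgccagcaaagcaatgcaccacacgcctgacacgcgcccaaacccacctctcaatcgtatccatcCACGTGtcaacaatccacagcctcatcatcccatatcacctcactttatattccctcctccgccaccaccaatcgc
FER4, chr2:16833295-16833444, minus strand: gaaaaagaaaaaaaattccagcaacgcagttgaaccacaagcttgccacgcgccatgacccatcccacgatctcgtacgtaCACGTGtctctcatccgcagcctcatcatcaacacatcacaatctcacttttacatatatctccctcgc

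BTS has 3 G-boxes in this window and the others 1 each. FRO6 and FRO7 are neighbours, and their windows share an unbroken run of 29 bases that holds the G-box, yet FRO7 rose and FRO6 did not pass. FER3 and FER4, both ferritin genes, share a run of 13 bases outside the G-box, and FER3 fell while FER4 did not pass. Whether the members of either pair changed differently from each other was not tested. The zinc element core was rarer, in 0.324% of all promoters and in 2 of the 54, those of IRT3 and ZIP4, neither of which passed. The window of IRT3 is shown with this match in capitals.
IRT3, chr1:22447300-22447449, minus strand: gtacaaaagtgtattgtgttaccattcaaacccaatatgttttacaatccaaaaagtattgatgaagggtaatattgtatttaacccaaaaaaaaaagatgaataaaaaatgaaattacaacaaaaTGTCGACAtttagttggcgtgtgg
The phosphate element lay upstream of BHLH39 and YSL3 (3.70% of the 54, against 6.5% of all promoters). The short copper core was in 26 of the 54 (48.1%, against 39.7%), and COPT2, FRO4 and FRO5 held none in this window. A match is a string of letters and not a bound site.

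Among the IRT and ZIP transporters, which carry iron, zinc and related metals across membranes, 4 of 9 fell and 1 rose. Beside this count and those of the roles that follow, 21.6% of all tested genes were lower and 19.3% higher. IRT1, the main iron importer of the root epidermis (AT4G19690, chr4:10707344-10709015), had 2.82 and 3.72 CPM in cml39 and 39.5 and 43.6 CPM in wt. Its log2 change of -3.67 ± 0.17 (SE, n = 2 libraries per group; edgeR, adjusted p = 3.17e-05) was the fall with the lowest p among the 54. ZIP2, a zinc and manganese transporter of roots, stood at 2.01 and 2.52 CPM in cml39 and 20.7 and 18.9 CPM in wt (-3.13 ± 0.20, edgeR adjusted p = 6.98e-05). For both genes every cml39 library lay several-fold below every wt library. ZIP9 had 0 and 0 counts in cml39 and 13 and 12 in wt, and was at least 6.68-fold lower with 3 counts over the group as the floor (edgeR, adjusted p = 0.0116). That bound was 3.20-fold without cml39 1 and 3.48-fold without cml39 2. ZIP5 went the other way, at 22.1 and 14.4 CPM in cml39 and 9.86 and 9.52 CPM in wt (0.92 ± 0.22, edgeR adjusted p = 0.0123). Both are known as genes induced by zinc shortage; ZIP9 passed the filter on low counts through wt only, so that its direction was set by the filter.

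Of the remaining ZIP genes, ZIP3 fell by 1.19 ± 0.41 on the log2 scale, close to the threshold (edgeR, adjusted p = 0.0486). IRT2, a relative of IRT1, had 0.553 and 0.164 CPM in cml39 and 1.24 and 1.15 CPM in wt and did not pass (-1.70, adjusted p = 0.0537). It ends 2505 bases from the start of IRT1 on the same strand, and such neighbouring copies can share reads. IRT3, a zinc and iron transporter (0.37), ZIP1 (0.25) and ZIP4 (-0.05) did not pass. Leaving out 1 library ended some of these calls. ZIP5 did not pass without wt 1 or wt 2 (adjusted p = 0.0533 and 0.0557, with a range from 0.000182), nor did ZIP9 (adjusted p = 0.0647 and 0.0573, with a range from 0.00319). ZIP3 passed in 6 of 12 alternatives, with log2 changes of -1.90 to -0.71 and adjusted p from 0.00277 to 0.198, and was lost without wt 1, wt 2 or cml39 1. IRT2 passed without cml39 1, at -2.82 (adjusted p = 0.0103, range 0.0103 to 0.237), and IRT3 without cml39 2, at 0.48 (adjusted p = 0.0248, range 0.0248 to 0.300).

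Of 7 tested reductases 4 fell and 2 rose, against 21.6% lower and 19.3% higher of all tested genes. The large falls were those of the root surface enzymes. FRO2, the ferric chelate reductase of the root surface (AT1G01580, chr1:208995-213082), had 3.67 and 2.63 CPM in cml39 and 33.9 and 43.0 CPM in wt, a log2 change of -3.60 ± 0.21 (edgeR, adjusted p = 5.66e-05). FRO4 and FRO5, copper reductases of the root surface, were low in every library. FRO4 had 8 and 3 counts in cml39 and 78 and 49 in wt (-3.18 ± 0.50, edgeR adjusted p = 0.00219; -3.96 without cml39 1). FRO5 had 0 and 2 counts in cml39 and 60 and 17 in wt, a ratio of wt to cml39 of 30.9 with a counting interval of 8.26 to 259.5 (edgeR, adjusted p = 0.0079). That ratio was 14.8 without cml39 1 and 15.5 without wt 1, where FRO5 no longer passed (adjusted p = 0.0788, range 0.000573 to 0.0788), and at least 10.7 without cml39 2. FRO4 and FRO5 lie 4130 bases apart on the same strand and can share reads. FRO4 and FRO5 passed the filter through wt only. All 3 root surface reductases were lower in both cml39 libraries than in both wt libraries, as were 38% of all tested genes.

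Reductases of organelles and shoots had smaller changes. FRO7, the chloroplast reductase, had 30.1 and 61.2 CPM in cml39 and 23.1 and 19.3 CPM in wt (1.10 ± 0.30, edgeR adjusted p = 0.0206). Its cml39 libraries differed from each other by more than its wt libraries did. FRO3, a mitochondrial reductase, had 104 and 113 CPM in cml39 and 81.0 and 90.7 CPM in wt and rose by 0.34 ± 0.11 (edgeR, adjusted p = 0.0392). FRO8, also assigned to mitochondria, fell by 0.71 ± 0.19 (adjusted p = 0.0195), and FRO6, a plasma membrane reductase of shoots, did not pass (-0.43, adjusted p = 0.176). FRO1, which starts 1067 bases beyond the end of FRO2, had 1 and 2 counts in cml39 and 0 and 0 in wt and was not tested. FRO7 passed in 10 of 12 alternatives; it was lost without wt 2 (0.97, adjusted p = 0.0789, range 7.44e-06 to 0.0789) and with the robust fit (adjusted p = 0.0633), and its change was 0.50 without cml39 2. FRO8 was lost without wt 1 (-0.45, adjusted p = 0.193, range 0.00439 to 0.193). FRO3 passed in 7 of 12 alternatives and was lost without wt 1, wt 2 or cml39 2 (adjusted p from 0.0283 to 0.265). FRO6 passed without cml39 2, at -0.87 (adjusted p = 0.000417, range 0.000417 to 0.659).

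Both genes of coumarin release fell. F6'H1, the hydroxylase that makes the coumarin scopoletin's precursor, had 10.3 and 16.8 CPM in cml39 and 30.3 and 33.7 CPM in wt (-1.24 ± 0.22, edgeR adjusted p = 0.00341). ABCG37, which exports coumarins from the root, had 91.6 and 109 CPM in cml39 and 143 and 148 CPM in wt (-0.54 ± 0.12, edgeR adjusted p = 0.00818). Both passed in all 12 alternatives, and the fall of ABCG37 was the smaller.

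Among 7 tested regulators FIT fell, BHLH38 rose and 5 did not pass, against 21.6% lower and 19.3% higher of all tested genes. FIT, the bHLH factor that IRT1 and FRO2 depend on (AT2G28160, chr2:12004658-12006276), had 1.51 and 1.48 CPM in cml39 and 12.1 and 13.4 CPM in wt (-3.09 ± 0.22, edgeR adjusted p = 9.36e-05). Its 4 partners of the Ib group had 1 rise and 0 falls, and 3 did not pass. BHLH38 had 3.42 and 2.90 CPM in cml39 and 1.43 and 1.77 CPM in wt and rose by 0.99 ± 0.32 (edgeR, adjusted p = 0.0402). BHLH100 had 2.26 and 3.56 CPM in cml39 and 1.13 and 1.58 CPM in wt and just missed the threshold (1.11 ± 0.38, edgeR adjusted p = 0.0505). BHLH101 (0.34), BHLH39 (-0.33) and the bHLH repressor PYE (0.43) did not pass. BHLH38 and BHLH39 lie 1144 bases apart and can share reads.

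MYB10, a MYB factor of the iron response in roots, had 1 and 10 counts in cml39 and 27 and 26 in wt and did not pass (-1.93 ± 0.76, edgeR adjusted p = 0.0790). Its relative MYB72 had 7 and 0 counts in cml39 and 2 and 5 in wt and was not tested. MYB10 passed without cml39 2, at -4.33 (adjusted p = 0.00323, range 0.00323 to 0.241). BHLH38 passed in 6 of 12 alternatives and was lost without wt 1, wt 2 or cml39 1 (adjusted p from 0.0330 to 0.248). Without cml39 1, BHLH100 passed at 1.41 (adjusted p = 0.0149, range 0.0149 to 0.281) and BHLH101 at 0.77 (adjusted p = 0.0426, range 0.0426 to 0.714). The fall of FIT passed in all 12.

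Of the 3 BRUTUS ligases, which tag iron regulators for breakdown, 1 fell, 1 rose and 1 did not pass. BTSL1, known from roots where it acts on FIT (AT1G74770, chr1:28089172-28094956), had 3.82 and 3.88 CPM in cml39 and 28.1 and 30.1 CPM in wt (-2.91 ± 0.15, edgeR adjusted p = 4.44e-05). BTS, which limits the response in roots and shoots (AT3G18290, chr3:6273966-6280562), had 154 and 169 CPM in cml39 and 119 and 112 CPM in wt (0.49 ± 0.10, edgeR adjusted p = 0.00853). BTSL2 did not pass, at 13.6 and 13.3 CPM in cml39 and 17.8 and 16.5 CPM in wt (-0.35, adjusted p = 0.0821), but passed with upper quartile scaling (adjusted p = 0.0256, range 0.0256 to 0.382). BTS was lost without wt 2 (0.43, adjusted p = 0.0616, range 0.00191 to 0.0616).

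**Figure D2:**
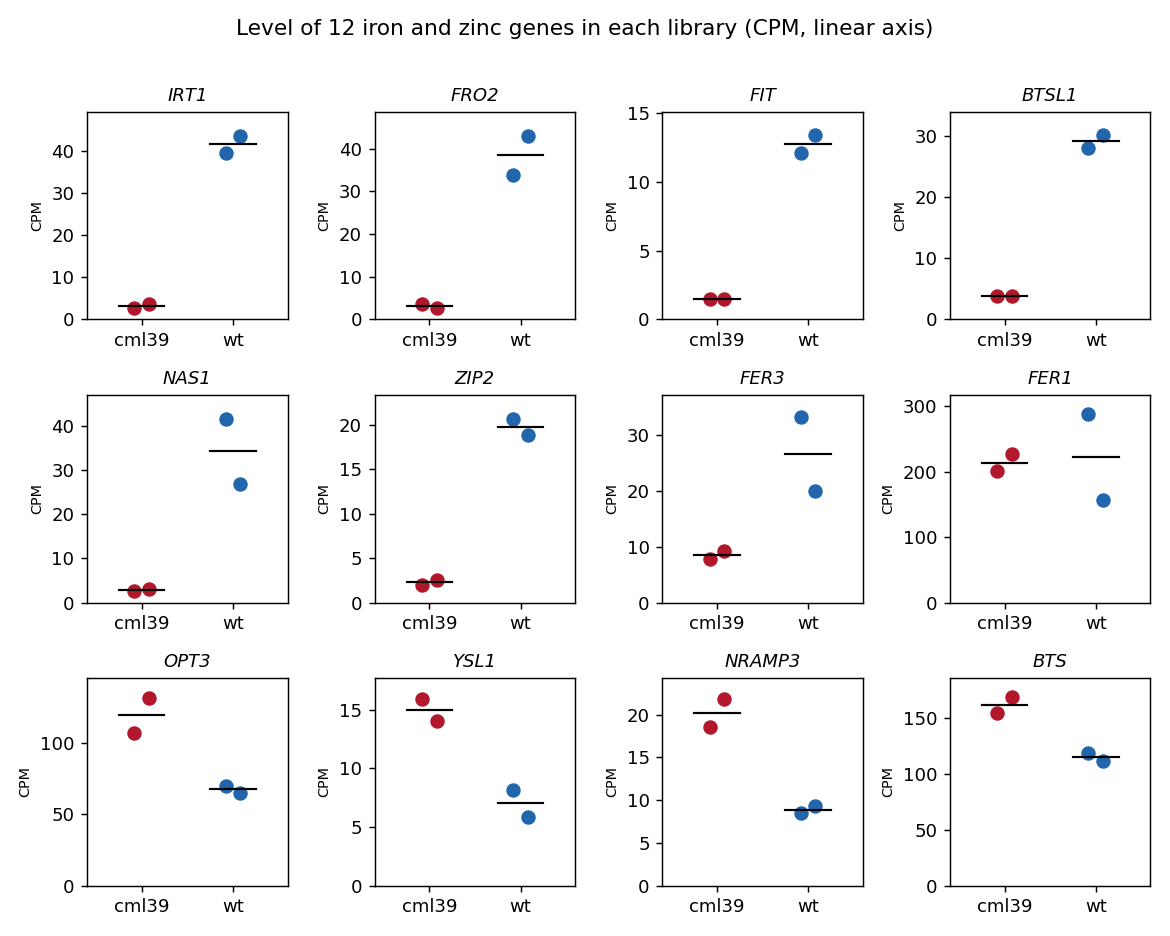
Level in CPM (linear y axes) of 12 iron and zinc genes in each library; points are libraries, bars are group means, and cml39 stands left of wt. IRT1, FRO2, FIT, BTSL1, NAS1 and ZIP2 are near the bottom of their axes in both cml39 libraries, OPT3, YSL1, NRAMP3 and BTS are higher there, and the wt libraries of FER1 (287 and 157 CPM) lie on either side of those of cml39.

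Nicotianamine synthases make the chelator that binds iron and zinc in transit, and 3 of the 4 fell, against 21.6% of all tested genes. NAS1 (AT5G04950, chr5:1457641-1459039) had 2.62 and 2.95 CPM in cml39 and 41.6 and 26.8 CPM in wt (-3.62 ± 0.25, edgeR adjusted p = 9.33e-05). NAS2 had 1.01 and 0.711 CPM in cml39 and 5.74 and 5.55 CPM in wt (-2.70 ± 0.31, edgeR adjusted p = 0.000565). NAS4, which passed the filter through wt only, had 5 and 16 counts in cml39 and 131 and 49 in wt (-2.71 ± 0.60, edgeR adjusted p = 0.00919). NAS3, the form known from leaves, was not lower and did not pass (0.89, adjusted p = 0.134). The fall of NAS4 was lost without wt 1 (-2.06, adjusted p = 0.0875, range 0.00032 to 0.0875), and it was -2.06 without cml39 1 and -3.84 without cml39 2. NAS3 passed without wt 1, at 1.67 (adjusted p = 0.0412, range 0.0386 to 0.509), and without cml39 1, at 1.17 (adjusted p = 0.0386).

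Among the carriers of iron and of metal-nicotianamine complexes, OPT3 and YSL1 rose and YSL2 fell. OPT3, the iron transporter of phloem companion cells (AT4G16370, chr4:9247302-9250343), had 107 and 132 CPM in cml39 and 69.9 and 65.3 CPM in wt (0.82 ± 0.13, edgeR adjusted p = 0.00193). YSL1, which moves metal-nicotianamine complexes out of leaves (AT4G24120, chr4:12524186-12527347), had 15.9 and 14.1 CPM in cml39 and 8.14 and 5.88 CPM in wt (1.09 ± 0.20, edgeR adjusted p = 0.00455). YSL3, which acts with YSL1, did not pass (0.05, adjusted p = 0.796), and YSL2 fell by 0.80 ± 0.17 (adjusted p = 0.00834). The calls of OPT3, YSL1 and YSL2 passed in all 12 alternatives.

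Of the 7 genes that move metals out of the cytosol, toward the xylem or into vacuoles, 6 fell and 1 rose. Of all tested genes 21.6% were lower and 19.3% higher. MTP3, which stores zinc in root vacuoles, had 2.11 and 2.85 CPM in cml39 and 12.3 and 9.33 CPM in wt (-2.13 ± 0.25, edgeR adjusted p = 0.000675). FPN2, a vacuolar ferroportin of roots also called IREG2, had 0.855 and 0.930 CPM in cml39 and 4.20 and 3.92 CPM in wt (-2.18 ± 0.32, edgeR adjusted p = 0.0016). FRD3, which exports the citrate that carries iron in the xylem, had 2.11 and 4.54 CPM in cml39 and 11.7 and 12.3 CPM in wt (-1.86 ± 0.32, edgeR adjusted p = 0.00323; -2.50 without cml39 2). For all 3 both cml39 libraries were below both wt libraries, as for 38% of all tested genes, and the call held in all 12 alternatives.

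The 3 zinc pumps of the HMA family fell. HMA2, which loads zinc into the xylem, had 1.81 and 1.48 CPM in cml39 and 7.35 and 4.11 CPM in wt (-1.80 ± 0.36, edgeR adjusted p = 0.00595). HMA4, which shares that role, fell less, by 0.51 ± 0.12 (adjusted p = 0.0131). HMA3, a vacuolar pump 4903 bases from HMA2 that can share reads with it, fell by 1.96 ± 0.53 (adjusted p = 0.0216) and had passed the filter through wt only. FPN1, or IREG1, the ferroportin of the vasculature, was the 1 that rose, at 15.2 and 21.1 CPM in cml39 and 9.34 and 10.9 CPM in wt (0.85 ± 0.20, edgeR adjusted p = 0.0114). Without wt 1 the adjusted p was 0.0715 for HMA2 (log2 change -1.31), 0.130 for HMA4 (-0.38) and 0.0782 for FPN1 (0.75), the highest over their 12 alternatives, whose lowest were 0.000263, 0.00339 and 0.000642. HMA3 passed in 8 of 12 alternatives and was lost without wt 1, wt 2 or cml39 2 (adjusted p from 0.0112 to 0.120); it was -2.57 without cml39 1.

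The NRAMP transporters and COPT2 split between uptake and release. NRAMP3, which releases iron from the vacuole (AT2G23150, chr2:9856149-9858778), had 18.5 and 21.8 CPM in cml39 and 8.51 and 9.28 CPM in wt (1.18 ± 0.16, edgeR adjusted p = 0.00113), the largest rise among the 54. NRAMP4, its partner, had 36.0 and 36.1 CPM in cml39 and 27.6 and 27.0 CPM in wt (0.40 ± 0.11, edgeR adjusted p = 0.0228). NRAMP1, a manganese and iron importer of roots, had 34.0 and 34.9 CPM in cml39 and 44.0 and 44.1 CPM in wt (-0.35 ± 0.11, edgeR adjusted p = 0.0311). COPT2, a copper importer of the root surface (AT3G46900, chr3:17268700-17269510), had 0.553 and 1.04 CPM in cml39 and 6.08 and 3.83 CPM in wt (-2.65 ± 0.42, edgeR adjusted p = 0.00216). NRAMP3 and COPT2 passed in all 12 alternatives. NRAMP1 and NRAMP4 each passed in 7, with adjusted p from 0.00796 to 0.173 and from 0.0207 to 0.145; both were lost without wt 1 or wt 2, and NRAMP1 also without cml39 1.

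Ferritin, the iron store of plastids, showed 1 fall among 4 tested genes, against 21.6% lower of all tested genes. FER3 had 7.70 and 9.19 CPM in cml39 and 33.1 and 20.0 CPM in wt (-1.66 ± 0.25, edgeR adjusted p = 0.00179) and passed in all 12 alternatives. FER1, the leaf ferritin (AT5G01600, chr5:227953-230051), had 201 and 226 CPM in cml39 and 287 and 157 CPM in wt (-0.06 ± 0.25, adjusted p = 0.875), and the groups overlapped. FER4 had 17.7 and 19.0 CPM in cml39 and 22.4 and 17.8 CPM in wt (-0.13, adjusted p = 0.521). FER2, the seed ferritin, was below 1 CPM in every library, at 0.553 and 0.711 CPM in cml39 and 0.863 and 0.717 CPM in wt (-0.33, adjusted p = 0.620). VIT1, the vacuolar iron importer of seeds, had 0 and 0 counts in cml39 and 1 and 0 in wt and was not tested. FER1 depended on which wt library was used: without wt 2 it passed at -0.44 (adjusted p = 0.0481, range 0.0481 to 0.995), and without wt 1 it stood at 0.45.

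Root uptake genes were then set beside genes of storage and of shoots, with both lists chosen when these results were known. Beside the counts below, 19.3% of all tested genes were higher and 21.6% lower. The first list is IRT1, IRT2, FRO2, FIT, MYB10, MYB72, NRAMP1, COPT2, F6'H1 and ABCG37. Of its 9 tested genes 7 fell, 0 rose and IRT2 and MYB10 did not pass, and all 9 were lower in both cml39 libraries than in both wt libraries, as were 38% of all tested genes. The median log2 change was -1.93, or 3.80-fold lower, with a range of -3.67 to -0.35. That median is the value of MYB10, which had 1 and 10 counts in cml39 and did not pass. The second list is FER1 to FER4, VIT1, FRO6 to FRO8, OPT3, YSL1, YSL3, NRAMP3 and NRAMP4. Of its 12 tested genes 5 rose, 2 fell and 5 did not pass, with a median of -0.0029 and a range of -1.66 to 1.18. The difference between the lists was not tested. Without cml39 2 the median of the uptake list was -3.07, and without wt 1 that of the storage list was 0.27. IRT2 and MYB10 passed the filter on low counts through wt only.

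The root markers of the same libraries, 8 of 20 of which entered through wt only, had a median of -2.21, beside -1.93 for the uptake list, and the markers of leaves and chloroplasts 0.30, beside -0.0029 for the storage list. Among the root markers PHO1, which exports phosphate to the xylem, had a log2 change of -2.02 ± 0.13, the phosphate importer PHT1;1 -1.70 ± 0.12, PYK10 -1.88 ± 0.15 and the aquaporin TIP2;3 -4.75 ± 0.40 (-4.06 without cml39 1, -6.02 without cml39 2). The threshold was missed by 4 root markers: PLT1 (-0.40), PLT2 (-0.86), MYB36 (-0.23) and SCR (0.21). PLT1 had 6 and 55 counts in cml39 and 58 and 45 in wt, so that its cml39 libraries, like those of PLT2, differed from each other more than its wt libraries did. SHR, another root regulator, fell (-0.80, adjusted p = 0.00652); these genes were picked once their values were known. Among the leaf markers LHCB1.3 (0.86), RCA (0.51), LHCA4 (0.50) and GAPB (0.34) rose, as did GLK2 (0.79, edgeR adjusted p = 0.0467). GLK2 had 150 and 292 CPM in cml39 and 122 and 134 CPM in wt, and its call was not followed over the alternatives. The other 5 did not pass: RBCS1A (0.27), LHCA1 (0.13), LHCB2.1 (0.04), CA1 (-0.15) and GLK1 (-0.16). RCA was lost without cml39 2 (adjusted p = 0.0837), LHCA4 without either cml39 library (adjusted p up to 0.105) and GAPB without any 1 of the 4 libraries (adjusted p up to 0.150). The part of root material in the falls of the uptake genes was not tested.

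**Figure D3:**
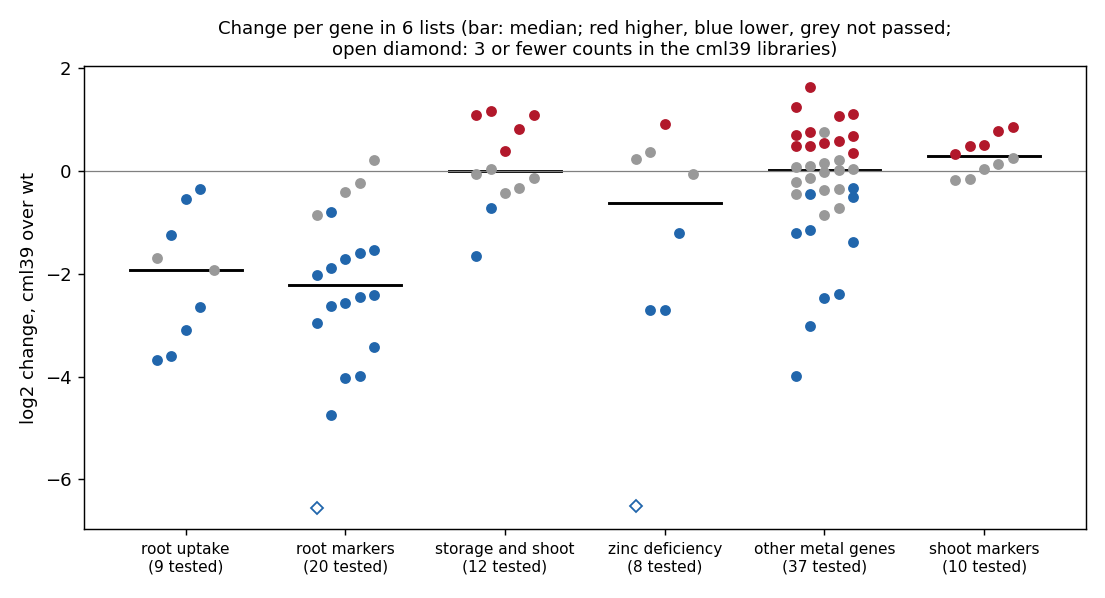
Log2 change (cml39 over wt, y axis) of each tested gene in 6 lists; bars are medians, red passed as higher, blue as lower, grey did not pass. The root uptake genes, and the root markers other than SCR, lie below 0 with medians of -1.93 and -2.21, the storage and shoot genes lie on both sides with a median of -0.0029, and WOX5 and ZIP9, the open diamonds, had 0 counts in cml39.

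Genes known to answer to zinc or copper shortage were read as groups of their own. For comparison, 19.3% of all tested genes were higher and 21.6% lower. Of the zinc genes IRT3, ZIP1, ZIP3, ZIP4, ZIP5, ZIP9, NAS2 and NAS4, 4 fell, 1 rose and 3 did not pass, with a median of -0.62, and 2 of the falls, ZIP9 and NAS4, had passed the filter through wt only. Only 1 of the 8 passed without wt 1 and 2 without wt 2. The copper genes COPT2, FRO4 and FRO5 all fell, with a median of -3.18, and FRO4 and FRO5 had passed the filter through wt only. A list of genes induced by iron shortage had 17 tested members, with a median of -0.35. Of these 4 rose (FRO3, BHLH38, BTS and OPT3), 6 fell (IRT1, FRO2, FIT, BTSL1, F6'H1 and ABCG37) and 7 did not pass. The list does not hold the NAS genes, MTP3, FPN2, NRAMP1 or COPT2, and its counts depend on that choice.

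Other genes of metal homeostasis, 42 in the table and 37 tested, had 12 rises, 10 falls and 15 genes that did not pass. All tested genes had 19.3% higher and 21.6% lower. The median of the other metal genes was 0.01, and with upper quartile scaling 9 rose and 13 fell. The 4 with the lowest p were VTL5, AHA2, CSD2 and CCS. VTL5, a relative of the vacuolar iron transporter, had 10.8 and 13.7 CPM in cml39 and 64.4 and 64.2 CPM in wt (-2.39 ± 0.14, edgeR adjusted p = 6.02e-05). AHA2, the proton pump that acidifies the root surface, had 247 and 244 CPM in cml39 and 578 and 553 CPM in wt (-1.20 ± 0.10, edgeR adjusted p = 0.000165). CSD2, the copper and zinc superoxide dismutase of chloroplasts, had 487 and 417 CPM in cml39 and 122 and 167 CPM in wt (1.64 ± 0.17, edgeR adjusted p = 0.00033). CCS, the chaperone that gives superoxide dismutase its copper, had 127 and 124 CPM in cml39 and 46.1 and 59.8 CPM in wt (1.25 ± 0.14, edgeR adjusted p = 0.000476). All 4 passed in all 12 alternatives.

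Levels can be compared between genes only per length of transcript. FER1 stood highest, at 150.3 CPM per kb of exon in cml39 and 156 in wt. OPT3 (44.3 in cml39, 25.1 in wt), FRO3 (39.1 in cml39, 30.8 in wt) and BTS (35.9 in cml39, 25.7 in wt) followed in cml39. IRT1 had 2.09 CPM per kb in cml39 and 26.6 in wt, NAS1 1.99 in cml39 and 24.5 in wt, and FRO2 1.11 in cml39 and 13.5 in wt. In wt the level of IRT1 per length was therefore close to those of OPT3 and BTS, and in cml39 it was far below both.

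**Figure D4:**
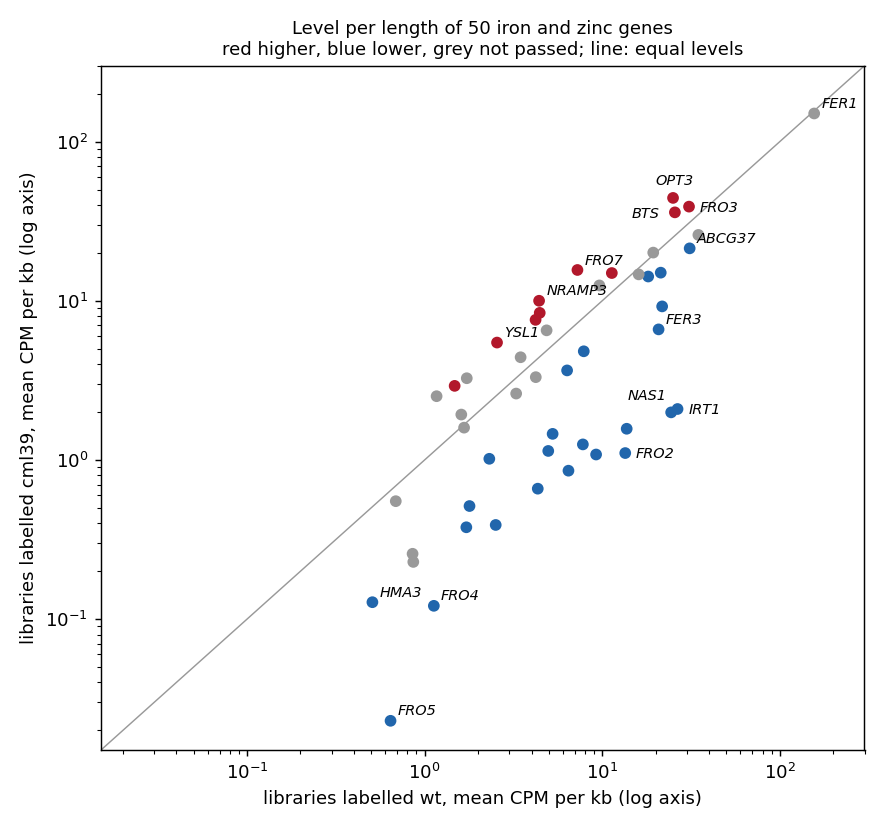
Mean CPM per kb of exon in cml39 (y axis) against wt (x axis), both on log axes, for 50 of the iron and zinc genes that were tested and had a count in both groups; the line marks equal levels, and colours are as in the plot of changes by role. FER1 is the highest point and lies on the line, while IRT1, NAS1 and FRO2 lie far below it.

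The mean counts and fold changes of the authors' deposited table are not those of these 4 libraries. In it 50 of the 54 genes had an adjusted p, and 2 were called higher and 11 lower. Among all genes with an adjusted p there, 16% were called in either direction, and the shares by direction were not counted. In the authors' deposited table the rises were OPT3 (log2 change 0.81) and YSL1 (1.03), and the falls ZIP2, FRO4, FRO5, FIT, BTSL1, NAS4, MTP3, FPN2, FRD3, COPT2 and FER3. FIT had -2.50, BTSL1 -2.44 and ZIP2 -2.42 in the authors' deposited table. The authors' changes come from DESeq2 and those here from edgeR. Run on the 4 libraries, the DESeq2 test gave log2 changes of -3.67 for IRT1, -3.60 for FRO2 and -3.62 for NAS1. For these genes edgeR gave the same rounded values. The authors used an earlier version of DESeq2, so the sizes in their table may still not be on the same scale. The cause of the difference from their table was not tested. IRT1 (-1.06, adjusted p = 0.202), FRO2 (-1.39, adjusted p = 0.092) and NAS1 (-0.69, adjusted p = 0.462) were not called in the authors' deposited table, although all 3 fell in the 4 libraries here.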

How the data were processed

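Per the submitters' processing notes, CASAVA 1.8, FastQC, STAR 2.5.2b and DESeq2 1.14.1 were used with the TAIR10 build; how the counting treated strand, and on which annotation, is not given in the sources used here, so genes that overlap on opposite strands may hold each other's reads. The deposited count table holds raw gene counts, which the authors did not normalize. The authors' deposited table of the comparison holds a mean normalized count (signal), a log2 fold change with its standard error, a test score, and a p-value with its adjusted p-value.

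The comparison was made with edgeR 4.0.16 in R 4.3.3, after filterByExpr (minimum count 10) and scaling by the trimmed mean of M values (0.905 and 0.923 for cml39, 1.11 and 1.08 for wt), by the two-sided quasi-likelihood F test, Benjamini-Hochberg adjusted over 19834 genes, with a threshold of 0.05. The standard error is the absolute log2 change over the square root of F. Groups at 0 counts were set to 3 counts over the group, and groups of 1 to 3 counts got an exact binomial 95% interval, for counting error only. The steps were tested on simulated data. The 12 alternatives were upper quartile scaling, the size factors of DESeq2, no filter, a filter of 1 CPM, a replicate block, a robust fit, limma-voom (limma 3.58.1), the test of DESeq2 1.42.0, and 4 fits that each lack 1 library.

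The genes and lists were chosen with earlier results of these data known. In each role the 4 tested genes with the lowest p are given in every library, the others by change or count. Of the other metal genes and of the markers, the 4 with the lowest p are given, with further markers named beside them. Symbols and positions come from TAIR10.1 in RefSeq, which holds 32548 of the count table's identifiers and not 285.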

Additional observations from a re-analysis of the deposited data

How the results depend on the processing

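No iron or zinc gene that passed changed direction in any alternative, and the libraries whose absence cost a call are given beside the values. With each library left out in turn, 22 to 36 of the 54 iron and zinc genes passed (35 with all libraries), 1 to 6 of the zinc shortage genes (5), 14 to 23 of the other metal genes (22) and 4177 to 8364 of all genes (8107); the counts were lowest without wt 1, and for the other metal genes without wt 2. The median log2 change ranged from -3.07 to -1.78 for root uptake genes, -0.16 to 0.27 for storage and shoot genes and -2.70 to -1.93 for root markers, and limma-voom gave -2.48 for root uptake genes; the cause was not tested.

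Some of the genes that did not pass changed sign. With a library left out, ZIP1 ranged from -0.084 to 0.62, ZIP4 from -0.363 to 0.315, BHLH101 from -0.244 to 0.769, YSL3 from -0.139 to 0.218, FER1 from -0.438 to 0.447 and FER4 from -0.296 to 0.043. ZIP4 was 0.00611 with limma-voom, YSL3 -0.097 with upper quartile scaling, and FER1 0.00473 with the replicate block, 0.00228 with limma-voom and 0.0041 with the crossed pairing.

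Upper quartile scaling moved the median of all genes to -0.153, with 2704 genes higher and 5403 lower (3822 and 4285 otherwise). Across the tested genes, the difference of cml39 1 from cml39 2 and that of wt 1 from wt 2 had a correlation of -0.118. The labels do not say whether same-numbered libraries shared a batch, and this value cannot settle it. In the main comparison the numbers only name samples. With the replicate block 30 of the iron and zinc genes passed and 6744 of all genes; with the crossed pairing, chosen after seeing the data, 38 and 8696. Among the tested genes, low counts limit precision for IRT2, ZIP9, FRO4, FRO5, MYB10, NAS4, HMA3, FPN2 and FER2. All of these were below 1 CPM in both cml39 libraries.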
